A study of Mus musculus with 18 samples.

Results

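Cells that carried an active Hes5 reporter were compared with reporter negative cells of the same line, on 6 of the 18 Illumina mouse bead arrays of the series. The 6 arrays were chosen by their titles, 3 from Hes5::GFP positive cells and 3 from Hes5::GFP negative cells, and arrays with the same number, 1 to 3, were taken as pairs. The cells came from mouse embryonic stem cells of strain J1 that carried the reporter as a bacterial artificial chromosome (BAC) transgene, were driven toward midbrain dopamine neurons and were sorted by fluorescence on days 14 to 15. The negative cells carry the same transgene, and the labels do not say whether the line is 1 clone. The other 12 arrays hold positive and negative cells, 3 arrays of each, of a Nurr1::GFP line and a Pitx3::YFP line of the same strain, differentiated and sorted alike. On the 6 Hes5 arrays 34.9% to 37.4% of probes were above background (detection p-value under 0.01), against 33.5% to 37.4% on all 18. The labels do not say whether equal groups came from separate cultures, so all p-values here measure only the spread between arrays. Unless stated otherwise, all 18 arrays entered the fit, which gave each gene 1 spread for the 3 lines. Standard errors (SE) and p-values of the Hes5 sort thus rest partly on Nurr1 and Pitx3 arrays. They can differ from those of the Hes5 pairs alone.

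Hes5 is a transcriptional repressor that Notch receptors switch on. When a Delta or Jagged ligand on a neighbouring cell binds Notch, the receptor is cut, its inner part joins the DNA-binding protein RBPJ, and this complex activates Hes and Hey genes. Their products hold down proneural genes and keep neural progenitors from becoming neurons, while progenitors with more proneural protein make more Delta and start to differentiate. Hes5 is therefore widely used as a mark of Notch activity in neural progenitors, and the comparison asks what sets the cells with that mark apart at the time dopamine neurons form. The set was given with Hes5 itself and 2 genes of neuronal commitment, Ebf2 and Myt1, as its markers.

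On the log2 scale of normalized intensity used throughout, reporter RNA, read by a probe for EGFP, stood at 13.73, 13.54 and 13.64 in positive cells of pairs 1 to 3, against 9.51, 11.12 and 8.48 in negative cells. The groups do not overlap, and the negative array of pair 2 lay between the other negative arrays and the positive ones. The reporter rose by 3.93 (SE 0.54, adjusted p = 0.0281, limma with the replicate number as a block, higher in 3 of 3 pairs), which is 15.3-fold. Hes5 read 12.08, 12.47 and 11.96 in positive cells, against 9.71, 11.15 and 9.51 in negative cells, again without overlap and again with negative pair 2 in between. Its difference of 2.04 (SE 0.48) missed the threshold of 0.05 (adjusted p = 0.0718). Ebf2, a transcription factor of newly formed neurons, read 10.15, 10.15 and 8.92 in positive cells, against 7.53, 7.68 and 7.88 in negative cells. Myt1, a zinc finger factor that favours neuronal differentiation, read 11.26, 11.47 and 11.10 in positive cells, against 9.26, 10.32 and 10.17 in negative cells. Ebf2 (2.04, SE 0.28, adjusted p = 0.0281) and Myt1 (1.37, SE 0.24, adjusted p = 0.0448) both rose, and neither had overlapping groups.

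**Figure D1:**
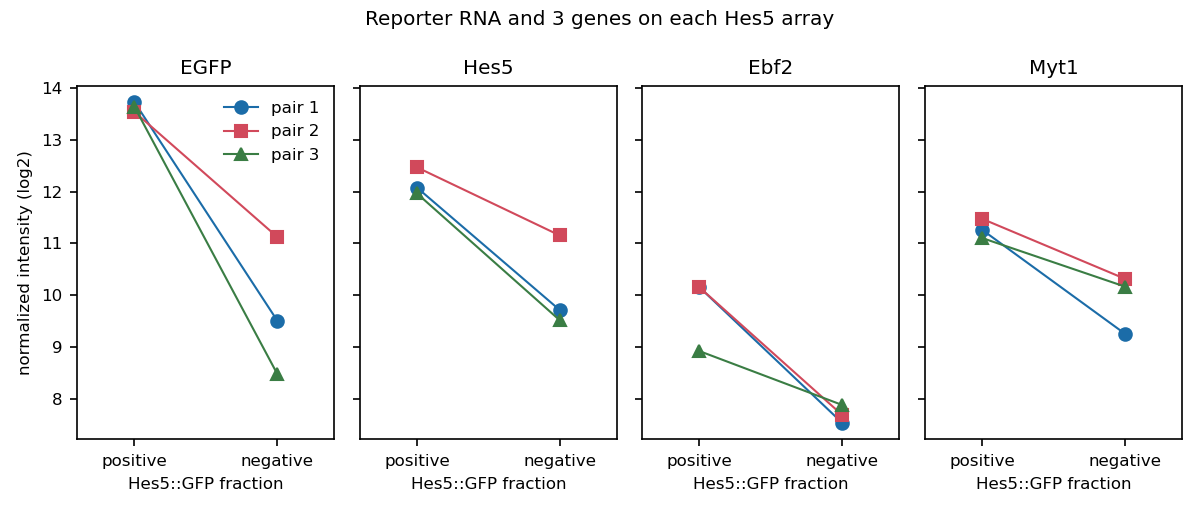
Normalized log2 intensity (vertical axis) of reporter RNA (EGFP), Hes5, Ebf2 and Myt1 in Hes5::GFP positive cells (left of each panel) and negative cells (right), 1 symbol and colour for each pair. All 4 are higher in the positive array of every pair, and for EGFP and Hes5 the negative array of pair 2 (11.12 and 11.15) lies closest to the positive cells.

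The label of that array is contradictory: its title and genotype call it negative and its source name calls it positive. Its EGFP and Hes5 levels lie below all positive arrays and above both other negative arrays. Over all genes tested it correlated at 0.981 with the positive array of the same number, more closely than any other pair of the 6 arrays (0.876 to 0.965). It was kept as negative, as its title says. The arrays of pair 1 stood apart in another way. Lmx1a, a floor plate factor that defines the midbrain dopamine lineage, read 4.95 in positive and 5.49 in negative cells of pair 1, not above background, while the other 16 arrays of the series held 9.98 to 13.03. Th, the rate-limiting enzyme of dopamine synthesis, read 5.72 and 4.84 there against 7.69 to 14.25 on the other 16 arrays, and Nr4a2, the gene of Nurr1, read 5.37 and 5.25 against 6.24 to 11.16. The floor plate factor Foxa2 was lower as well, at 7.02 and 7.71 against 8.58 to 10.33. The floor plate signal gene Shh did not follow them, with 8.98 and 10.56 against 8.11 to 12.61. Lmx1a, Th and Nr4a2, markers of the labelled differentiation, were thus near background in both fractions of pair 1, and results are given below by pair. These genes and the pluripotency genes named below by symbol alone were picked after their values were seen.

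In the paired fit 79 of 12650 genes rose in Hes5 positive cells (0.625% of the genes tested) and 77 fell (0.609%), 156 in all (1.23%). All 156 had the same sign in 3 of 3 pairs, but these are the differences by which they were called. Of all 12650 genes 2760 were higher and 1992 lower in all 3 pairs. The positive and negative arrays did not overlap for 51 of the risen and 52 of the fallen genes, while over all genes they did not overlap, higher in positive cells, for 6.03% and, lower, for 4.08%. The calls need the pairing: without the replicate block 2 genes passed, EGFP (adjusted p = 0.0163) and a gene listed as LOC327816, with 822 at an unadjusted p under 0.05, and among the other named genes that passed in the paired fit the unpaired adjusted p ran from 0.139 to 0.855. The count also changed when 1 pair was left out, to 3 without pair 1, 1128 without pair 2 and 4 without pair 3. It was between 10 and 100 without 1 Nurr1 or Pitx3 pair, where the Hes5 values stay the same. Fewer arrays also leave fewer degrees of freedom, and the cause was not tested. Of the 156, 154 were among the 1128. From the 6 Hes5 arrays alone limma called 0 genes, with 1452 at an unadjusted p under 0.05. That fit takes its spread from the Hes5 pairs only and has fewer degrees of freedom. The 156 calls thus depend on the spread shared with the Nurr1 and Pitx3 lines. The pairs differed in size: 1231 genes were 2-fold or more higher and 1042 lower in pair 1, 96 and 270 in pair 2, and 214 and 498 in pair 3.

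Among the largest rises were transcription factors of developing neurons and of the neural tube. The LIM homeobox gene Lhx1, used by several classes of interneuron, read 10.72, 9.54 and 10.03 in positive cells, against 8.14, 8.15 and 8.53 in negative cells. Every positive array was above every negative one, and Lhx1 rose by 1.83 (SE 0.31, adjusted p = 0.0434). The Iroquois homeobox genes Irx5 (1.67, SE 0.30, adjusted p = 0.0459) and Irx3 (1.51, SE 0.20, adjusted p = 0.0281), which pattern the neural tube, rose as well. Irx3 read 10.45, 9.13 and 9.57 in positive cells, against 8.54, 7.42 and 8.66 in negative cells, so that pair 2 lay low in both fractions and kept the difference. St18, a zinc finger factor related to Myt1, rose by 1.57 (SE 0.23, adjusted p = 0.0300). The long noncoding RNA Sox2ot, which overlaps the progenitor gene Sox2, rose by 1.36 (SE 0.25, adjusted p = 0.0480) and was above background on 2 of 3 negative arrays. Sox2 itself stood at a difference of 0.39 (adjusted p = 0.574). The PHD finger gene Phf21b rose by 1.24 (SE 0.16, adjusted p = 0.0218), with 11.28, 10.90 and 10.92 in positive cells, against 9.75, 9.94 and 9.68 in negative cells, which leaves a clear gap between the groups. Lemd1 (1.12, adjusted p = 0.0300) and the POU homeobox gene Pou6f1 (1.12, adjusted p = 0.0438) close the list of the 12 largest rises without overlap between the groups. That list leaves out RIKEN, predicted, LOC and clone names, and 46 of the 79 risen genes have other names.

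**Figure D2:**
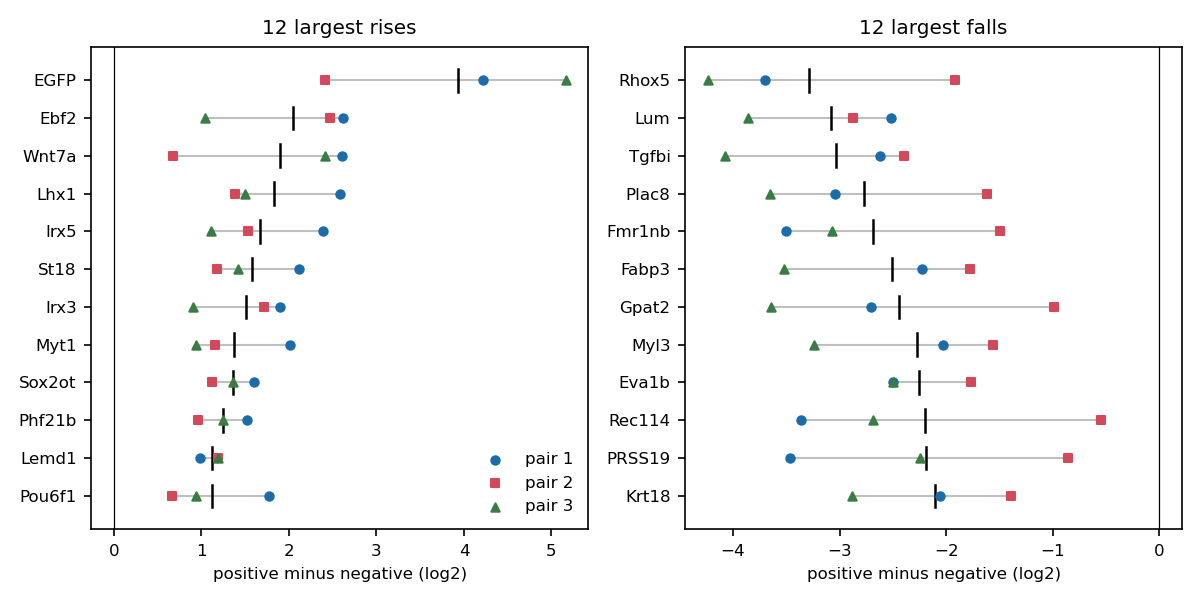
Difference between Hes5 positive and negative cells in each pair (horizontal axis, log2, symbols and colours for pairs 1 to 3) for the 12 largest rises (left) and falls (right) among genes that passed the test without overlap between groups. RIKEN, predicted, LOC and clone names are left out, and the black bar is the mean of 3 pairs. Pair 2 is the smallest of the 3 for EGFP (2.42) and for most of the falls, such as Rhox5 (-1.91).

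The Notch pathway stood higher in positive cells at nearly every step, with no member past the threshold over all genes. Of 26 genes listed 19 were measured, 18 were higher and 1 was lower, 14 were higher in all 3 pairs, and 8 did not overlap between the groups. Of all 12650 genes tested 6911 were higher, 2760 were higher in all 3 pairs, and 6.03% were higher without overlap. The 18 include Hes5, whose reporter was used to sort the cells. The median difference was 0.75, against 0.04 over all genes tested, and 1.05, 0.55 and 0.45 in pairs 1 to 3. Without pair 1 it was 0.58. Not among the genes tested were Notch2, Dll4, Lfng, Rbpj, Numb, Hes3 and Heyl.

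Among the ligands, Dll1 read 10.01, 9.25 and 10.31 in positive cells, against 8.59, 8.47 and 8.91 in negative cells. All 3 positive arrays were above all negative ones, with a difference of 1.2 (SE 0.31, adjusted p = 0.0864). Dll3, a divergent Delta that acts inside the cell, was above background on all positive and on no negative array (at least 1.70-fold, adjusted p = 0.100), and Jag1 on 2 positive and no negative array (at least 1.05-fold, adjusted p = 0.126). Jag2 stood at 0.02 (SE 0.15). Among the receptors, Notch1 read 10.39, 10.05 and 10.06 in positive cells, against 8.85, 9.50 and 9.32 in negative cells, a difference of 0.94 (SE 0.35, adjusted p = 0.168) without overlap. Notch3 stood at 0.28 (SE 0.38) and Notch4 at 0.01 (SE 0.16). Of the glycosyltransferases that tune receptors to their ligands, Mfng stood 1.24 higher (SE 0.26, adjusted p = 0.0612) and Rfng 0.44 (SE 0.20). Mfng read 10.30, 11.23 and 11.40 in positive cells, against 8.82, 9.89 and 10.49 in negative cells, so its groups overlap although every pair rose on its own. The ubiquitin ligase Mib1, which activates ligands, stood at 0.47, the coactivator Maml1 at 0.18, the inhibitor Numbl at 0.33 and the neuronal ligand Dner at 0.75.

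Among the targets, Nrarp, a feedback inhibitor that Notch induces, came next to Hes5. It read 11.84, 11.49 and 11.53 in positive cells, against 9.93, 10.90 and 9.63 in negative cells. The groups do not overlap, negative pair 2 is again the highest of the negative arrays, and the difference was 1.47 (SE 0.38, adjusted p = 0.0865). Hey2 stood 1.22 higher (SE 0.38, adjusted p = 0.118) with 7.29, 7.18 and 5.59 in positive cells, against 4.97, 6.51 and 4.90 in negative cells, where it was above background on 1 array. Hey1 stood at 0.47 (SE 0.34) and differed more between pairs than between fractions, with 11.58, 13.45 and 12.35 in positive cells, against 10.91, 13.16 and 11.90 in negative cells. Hes6, which counteracts the Hes repressors and promotes differentiation, stood 0.96 higher (SE 0.22, adjusted p = 0.0678) without overlap. Hes1 was the lower member, at -0.53 (SE 0.42, adjusted p = 0.488), with 9.56, 11.71 and 9.92 in positive cells, against 10.17, 12.05 and 10.54 in negative cells. Hes1 was lower in all 3 pairs, and without the replicate block and the array with contradictory labels it came to 0.04.

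Hes5 and Hey2 are shown with the 300 bases around their start sites, because they were the measured Notch genes whose window holds the core motif that RBPJ is known to bind, GTGGGAA on either strand (TTCCCAC when read on the other). Both windows hold it on both strands, in capitals here, starting at bases 168 and 25 of the window for Hes5 and at bases 247 and 44 for Hey2, counted from 1 at the 5′ end of the window. No match overlaps another. The sequences are from RefSeq, build GRCm38.p6, in the sense of the gene.
Hes5 promoter, chr4:154960673-154960972, plus strand: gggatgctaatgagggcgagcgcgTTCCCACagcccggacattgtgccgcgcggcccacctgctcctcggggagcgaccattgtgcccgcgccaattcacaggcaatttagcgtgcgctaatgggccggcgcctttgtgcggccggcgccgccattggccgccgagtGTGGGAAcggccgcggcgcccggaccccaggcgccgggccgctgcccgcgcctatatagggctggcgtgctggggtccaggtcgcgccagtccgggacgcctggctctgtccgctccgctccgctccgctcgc
Hey2 promoter, chr10:30842734-30843033, minus strand: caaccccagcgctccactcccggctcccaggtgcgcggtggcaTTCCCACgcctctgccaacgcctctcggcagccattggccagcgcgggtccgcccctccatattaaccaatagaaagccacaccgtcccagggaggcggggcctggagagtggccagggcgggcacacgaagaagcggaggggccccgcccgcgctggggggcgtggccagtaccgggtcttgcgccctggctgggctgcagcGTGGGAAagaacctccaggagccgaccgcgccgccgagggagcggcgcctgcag
At least 1 match was found in 6.38% of the 32851 windows of that length and 2 or more in 0.256%. Of the 15 measured Notch genes with a window 2 held it in at least 1 window, as did 5 of 38 risen and 3 of 53 fallen genes. These are counts of genes, and a gene can have several windows. The 6.38% is a share of single windows, so the 2 are not directly comparable. A match describes the letters in the window and shows no binding.

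Proneural and commitment genes stood higher in the same cells, in all 15 members measured of 25 listed, and 4 of them rose, Ebf2, Neurog2, St18 and Myt1. Of all 12650 genes tested 0.625% rose and 2760 were higher in all 3 pairs. The median difference was 1.04, with 1.51, 0.81 and 0.84 in pairs 1 to 3 and 0.60 without pair 1, and 12 of 15 were higher in all 3 pairs. Neurog2, a proneural basic helix-loop-helix factor that the midbrain dopamine lineage uses, read 8.80, 9.89 and 10.84 in positive cells, against 5.98, 7.96 and 9.93 in negative cells. The groups overlap because both fractions differ between pairs, and within pairs Neurog2 rose by 1.89 (SE 0.35, adjusted p = 0.0480). Neurod4, which acts after the proneural factors, stood 1.78 higher (SE 0.35, adjusted p = 0.0510).

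Of the other Ebf genes Ebf3 stood 1.36 higher (adjusted p = 0.0906), Ebf1 0.48 and Ebf4 0.13. Insm1, a zinc finger factor of progenitors that are leaving the cycle, stood at 0.79, Gadd45g at 0.57, the RNA binding protein gene Elavl2 at 0.80, and the corepressor genes Cbfa2t3 and Cbfa2t2 at 1.04 and 0.34. Neurod1, at 0.49, was above background on no Hes5 array. General neuronal genes differed less: of 18 pan-neuronal genes measured 16 stood higher with a median of 0.39, none passed, and the pairs disagreed, with 1.38, -0.47 and 0.29. Dcx, a microtubule protein of migrating neurons, read 11.73, 11.44 and 10.38 in positive cells, against 9.59, 11.34 and 9.83 in negative cells, so its difference of 0.93 (adjusted p = 0.240) came mainly from pair 1. The pan-neuronal median was -0.14 without pair 1 and 0.87 without pair 2.

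**Figure D3:**
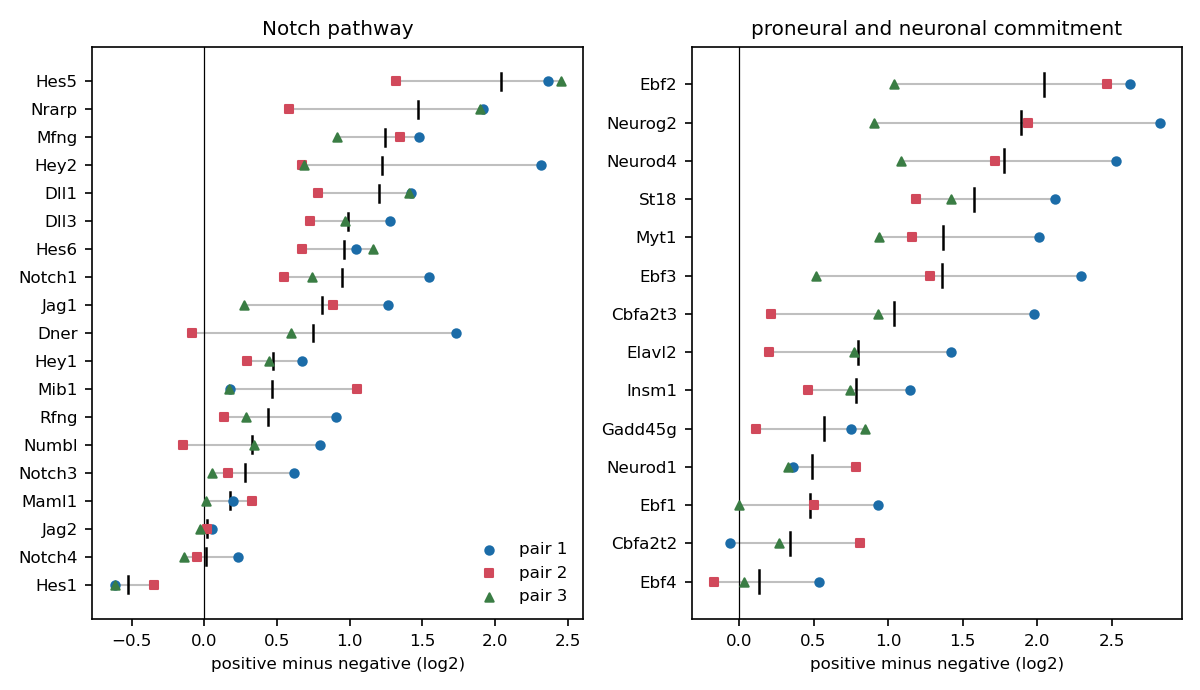
Difference between Hes5 positive and negative cells (horizontal axis, log2) for 19 measured genes of the Notch pathway (left) and 14 of the 15 measured genes of proneural and neuronal commitment (right), by pair, with the mean of 3 pairs as a black bar. Hes1 is left of 0 in all pairs, and Hes5, Nrarp, Ebf2 and Neurog2 are among the farthest right.

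Neural stem cell and radial glia genes stood higher in 12 of 14 measured, with a median of 0.70 (1.08, 0.34 and 0.74 by pair), 0.46 without pair 1, and none past the threshold. The progenitor factors Zic1 (1.44, SE 0.39, adjusted p = 0.0944) and Sox9 (1.2, SE 0.45, adjusted p = 0.175) and the receptor phosphatase Ptprz1 (1.01, SE 0.38, adjusted p = 0.171) differed most. Sox9 read 12.92, 13.10 and 12.55 in positive cells, against 11.03, 12.23 and 11.72 in negative cells, without overlap. Glial genes showed a median of 0.73 over 8 measured, led by the intermediate filament gene Gfap at 2.35 (SE 0.59, adjusted p = 0.0817). Gfap read 8.54, 9.88 and 7.02 in positive cells, against 5.59, 7.99 and 4.79 in negative cells, where 1 array was above background. It differed in every pair, while the glial median was 0.19 without pair 1. Genes of the cell cycle differed little: 13 mitosis genes had a median of 0.23 (-0.52, 0.66 and 0.41 by pair) and 16 DNA replication genes -0.25 (-1.10, 0.57 and -0.20), so that pairs 1 and 2 lay on opposite sides of 0. Mki67, a marker of cycling cells, stood at 0.47 (SE 0.41). The inhibitor of G1 kinases Cdkn2c rose by 0.69 (SE 0.12, adjusted p = 0.0459) and was higher in 3 of 3 pairs, as the 1 of 9 genes of cycle exit that passed. Of all genes tested 1.23% passed.

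Patterning genes were read in 3 lists. Of 11 Iroquois and LIM homeobox genes measured, 10 stood higher and 4 rose, Lhx1, Irx5, Lhx5 and Irx3, with a median of 0.71 and of 0.76 without pair 1. Of all genes tested 0.625% rose, the share to set beside this and the later counts of rises. Lhx5 read 9.28, 6.70 and 8.26 in positive cells, against 7.73, 5.27 and 6.28 in negative cells, with overlap between groups and a rise of 1.65 within pairs (SE 0.30, adjusted p = 0.0467). All 9 measured forebrain genes stood higher, with a median of 0.98, led by the homeobox genes Dlx1 (1.92, SE 0.48, adjusted p = 0.0805), Dlx2 (1.79, adjusted p = 0.0922) and Vax1 (at least 1.90-fold, adjusted p = 0.0864). Dlx1 read 8.59, 8.34 and 11.12 in positive cells, against 7.65, 5.99 and 8.66 in negative cells, so it was highest in pair 3 in both fractions. The forebrain median was 0.98, 0.33 and 1.94 by pair, came to 0.54 without pair 3 and to 0.48 without the replicate block and the array with contradictory labels, and none of the 9 passed. In the wider neural tube list 13 of 17 stood higher (median 0.38, and 0.62 without pair 1), led by the interneuron progenitor gene Dbx1 (1.43, adjusted p = 0.0645), the ventral gene Nkx6-2 (1.23, adjusted p = 0.0930) and the oligodendrocyte factor Olig1 (1.14, adjusted p = 0.168). GABA neuron genes had a median of 1.51 over 13 genes (1.33, 0.19 and 1.5 by pair), which was 0.84 without pair 1 and 0.995 without pair 3, and the 2 that rose were Lhx1 and Lhx5. The GABA transporter gene Slc32a1, which loads synaptic vesicles, stood 1.80 higher (SE 0.48, adjusted p = 0.0929), with 10.72, 8.13 and 9.85 in positive cells, against 8.07, 7.29 and 7.93 in negative cells, every positive array above every negative one. Dopamine neuron genes lay at -0.04 over 17 genes (0.02, -0.01 and -0.37 by pair). Lmx1a, Th and Nr4a2 were near background in both fractions of pair 1, so that pair does not measure their difference. Serotonin neuron genes lay at -0.62 over 9 genes (-0.265, -1.195 and -0.172 by pair, median -0.22 without pair 2). No gene of either list passed the threshold. In the axon guidance list 1 of 18 rose, Robo3, a receptor of crossing axons, which was above background on no negative array (at least 1.74-fold, adjusted p = 0.0385).

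In the Wnt list 2 of 22 genes rose, Wnt7a and Fzd3, both just under the threshold. Over 21 alternatives of the processing Wnt7a passed in 5 and Fzd3 in 4. Wnt7a read 9.99, 7.76 and 7.93 in positive cells, against 7.38, 7.08 and 5.52 in negative cells, where it was above background on 2 of 3 arrays. The groups do not overlap, and it rose by 1.90 (SE 0.37, adjusted p = 0.0499). Wnt7b, its close relative, stood 1.84 higher (SE 0.42, adjusted p = 0.0681) with 10.69, 9.38 and 10.86 in positive cells, against 8.57, 8.14 and 8.69 in negative cells. The Wnt receptor gene Fzd3 rose by 0.55 (SE 0.11, adjusted p = 0.0499), and Fzd9 was above background on all positive and no negative array (at least 1.56-fold, adjusted p = 0.0512). Over 22 Wnt genes the median was 0.29, with 15 higher and 7 lower. No Fgf or Hedgehog gene passed: the Fgf median was -0.10 over 13 genes, with Fgfbp3, a secreted carrier of Fgf, 1.68 higher (SE 0.40, adjusted p = 0.0759), and the Hedgehog median was -0.08 over 10 genes, with the ligand gene Shh at -0.80 (SE 0.37). Of 19 Bmp, Nodal and Tgf beta genes 1 fell, Tgfbi, against 0.609% of all genes, and Nodal stood at -2.21 (SE 0.50, adjusted p = 0.0659).

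Of 11 epithelial genes measured all 11 were lower in all 3 pairs, with a median of -2.08, and 3 fell. Of all 12650 genes tested 1992 were lower in all 3 pairs and 0.609% fell. Cldn6, a tight junction protein of early embryonic epithelia, read 7.18, 4.92 and 5.23 in positive cells, against 11.29, 6.89 and 9.15 in negative cells. It fell by 3.33 (SE 0.37, adjusted p = 0.0169), with overlap between pair 1 positive and pair 2 negative cells. The keratin partners Krt8 (-2.15, SE 0.23, adjusted p = 0.0169) and Krt18 (-2.11, SE 0.33, adjusted p = 0.0385) fell together. Krt18 read 7.40, 6.26 and 5.93 in positive cells, against 9.45, 7.65 and 8.82 in negative cells, without overlap. The epithelial median was -2.79, -0.23 and -2.38 in pairs 1 to 3, so most of its genes differed little in pair 2, while Krt18 kept -1.39 there.

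Of the germline and X-linked reproductive genes all 12 measured were lower (median -1.82) and 4 fell, against 0.609% of all genes. The X-linked homeobox gene Rhox5 read 7.54, 6.40 and 6.08 in positive cells, against 11.25, 8.32 and 10.32 in negative cells. No arrays overlap, and it fell by 3.29 (SE 0.57, adjusted p = 0.0445). Fmr1nb, a gene normally restricted to testis, was above background on no positive array (at least 4.18-fold lower, adjusted p = 0.0385), nor was Taf7l, a germ cell subunit of the basal transcription machinery (at least 2.39-fold lower, adjusted p = 0.0327). Rhox9 fell by 1.59 (SE 0.30, adjusted p = 0.0490). Also at background on all positive arrays were Gpat2, an acyltransferase found mainly in testis (at least 4.45-fold lower, adjusted p = 0.0490), and the meiotic recombination gene Rec114 (at least 3.07-fold lower, adjusted p = 0.0490). In pair 2 the list median was -0.58.

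Pluripotency genes moved with these falls. All 20 measured were lower, 16 of them in all 3 pairs, against 1992 of all 12650 genes, and none passed over all genes. The median was -2.03, but -3.14, -0.17 and -2.69 in pairs 1 to 3. The median level of the list was 6.64, 6.25 and 6.0 in positive cells, against 10.32, 6.59 and 8.85 in negative cells, so negative pairs 1 and 3 stood high and negative pair 2 lay at the level of the positive cells. Pou5f1, which encodes Oct4, read 7.12, 6.0 and 5.65 in positive cells, against 10.91, 5.74 and 9.20 in negative cells, and Nanog 6.77, 6.33 and 6.19 in positive cells, against 10.15, 6.57 and 9.96 in negative cells. Klf2 (-2.75, SE 0.76, adjusted p = 0.0990), Fbxo15 (-2.65, SE 0.66, adjusted p = 0.0806) and Utf1 (-2.58, SE 0.66, adjusted p = 0.0854) differed most. In bulk RNA, fewer cells of a type and less RNA per cell cannot be told apart, and the part of residual pluripotent cells in the falls above was not tested.

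Stromal and endoderm genes were lower too, and for the collagen and endoderm lists the median of pair 2 was of a size like that of pair 1. Lum, a proteoglycan of connective tissue, was above background on no positive array, with 4.79, 4.76 and 5.43 in positive cells, against 7.31, 7.64 and 9.29 in negative cells (at least 4.87-fold lower, adjusted p = 0.0459). Tgfbi, a matrix protein induced by Tgf beta, read 5.97, 5.89 and 6.46 in positive cells, against 8.60, 8.29 and 10.54 in negative cells. Both had their highest level in negative cells of pair 3, and Tgfbi fell by 3.03 (SE 0.44, adjusted p = 0.0300). Of 20 fibroblast and smooth muscle genes 16 were lower, 8 of them without overlap between the groups, and 3 fell: Lum, Tpm1 (-1.33, SE 0.23, adjusted p = 0.0448) and Tagln (at least 1.14-fold lower, adjusted p = 0.0490). Of all genes tested 0.609% fell and 4.08% were lower without overlap. The fibroblast and smooth muscle median was -0.87, -0.30 and -1.215 in pairs 1 to 3. Collagen chains had a median of -1.35 over 13 genes (-1.04, -0.94 and -1.43 by pair), and none passed the threshold. Col1a1 stood at -2.58 (SE 0.58, adjusted p = 0.0659), with -1.73, -2.22 and -3.79 by pair.

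All 7 endoderm genes measured were lower, at -1.06, -1.24 and -0.77 by pair, and 2 fell. Of all genes tested 0.609% fell, the share to set beside this and the later counts of falls. Spink1, a protease inhibitor of gut endoderm, read 6.73, 5.35 and 4.99 in positive cells, against 8.79, 6.59 and 6.82 in negative cells, with overlap between pair 1 positive and pair 2 negative cells (-1.71, SE 0.22, adjusted p = 0.0218). The endoderm factor Sox17 also fell (-1.10, adjusted p = 0.0385) but was above background on 1 negative array alone, so that its size is not measured. Other named falls were the fatty acid binding protein gene Fabp3 (-2.51, SE 0.37, adjusted p = 0.0300), with 9.17, 8.35 and 8.84 in positive cells, against 11.39, 10.12 and 12.37 in negative cells, and Plac8, a gene first found in placenta (at least 5.83-fold lower, adjusted p = 0.0300). Their groups do not overlap. The heart myosin light chain gene Myl3 (at least 2.45-fold lower, adjusted p = 0.0303), Eva1b (-2.26, SE 0.31, adjusted p = 0.0281) and PRSS19, named as deposited (-2.19, SE 0.39, adjusted p = 0.0467), complete the 12 largest falls without overlap. RIKEN, predicted, LOC and clone names are left out of that list, as for the rises. Among neural crest and peripheral neuron genes 2 of 12 fell, with Phox2a, a regulator of autonomic neurons, at -1.29, adjusted p = 0.0468. The cationic amino acid transporter gene Slc7a3 (-1.84, SE 0.36, adjusted p = 0.0490) and the stress pseudokinase gene Trib3 (-1.45, SE 0.27, adjusted p = 0.0480) fell, 2 of 22 genes of serine synthesis and amino acid stress. In the list of retinoid and fatty acid carriers the lipase gene Lpl fell by 1.07 (adjusted p = 0.0281) and the retinoic acid carrier gene Crabp2 rose by 0.78 (adjusted p = 0.0459).

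**Figure D4:**
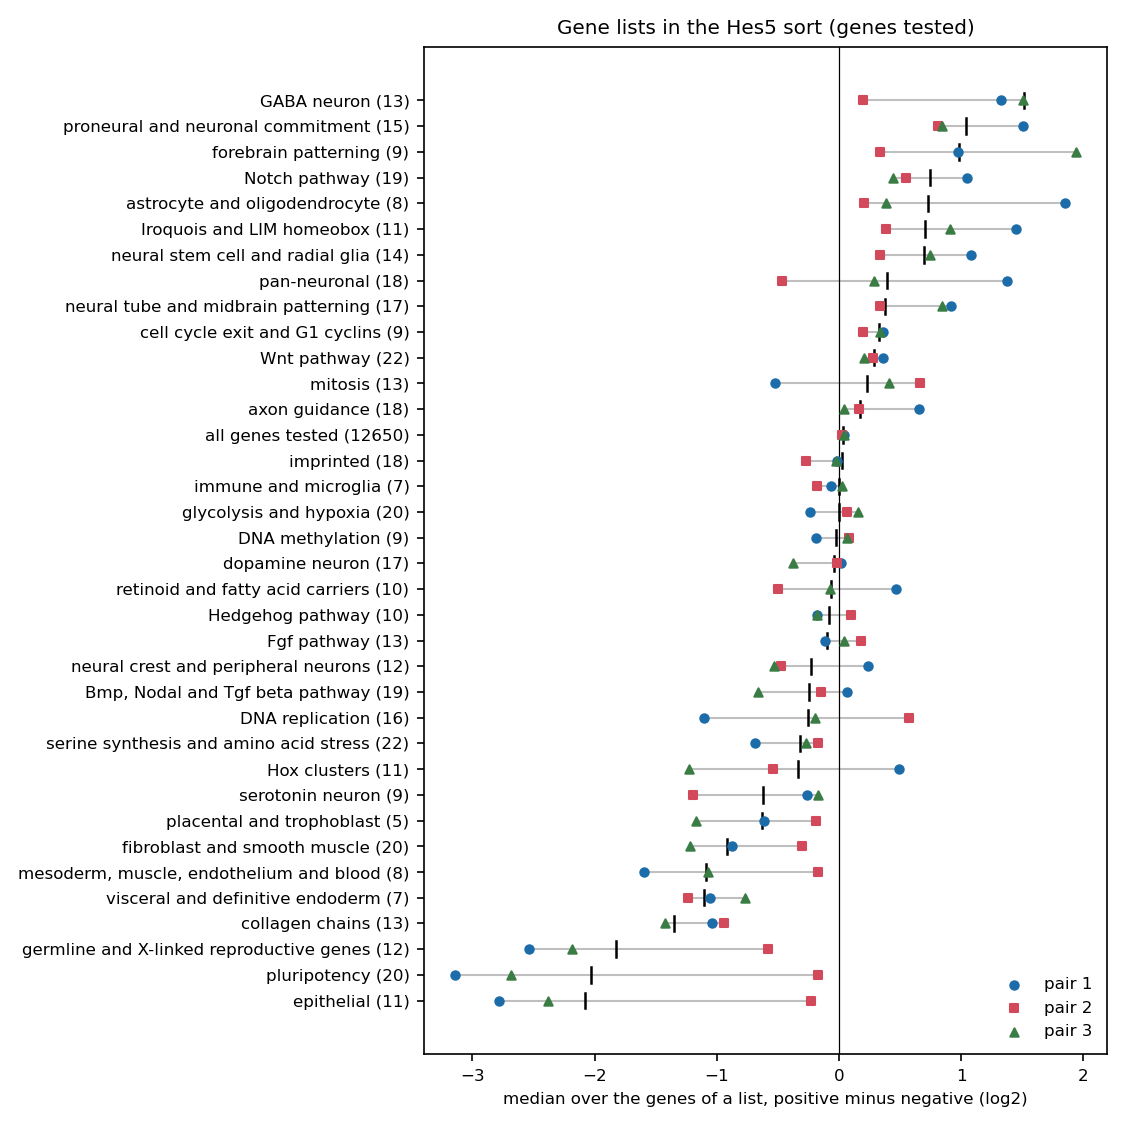
Median difference between Hes5 positive and negative cells (horizontal axis, log2) over the measured genes of 36 rows, 35 gene lists with 5 or more genes and all 12650 genes tested, by pair (symbols and colours), with the median over the 3-pair means as a black bar and the number of genes in brackets. Pluripotency, epithelial and germline lists lie far left in pairs 1 and 3 and closer to 0 in pair 2 (-0.17, -0.23 and -0.58). The collagen (-1.04, -0.94 and -1.43) and endoderm (-1.06, -1.24 and -0.77) lists lie left of 0 in all 3 pairs.

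The sorts of the other lines share no array with the Hes5 sort and give its genes readings in other cells of the same kind of culture. The fit gave each gene 1 spread for all 3 sorts, so a gene with a small spread passes more easily in each. Calls in different sorts are therefore not independent, and an overlap above the share of all genes does not by itself show a shared response. Of the 79 genes that rose in the Hes5 sort, 5 also rose in the Nurr1 sort, where 0.656% of all genes rose and 0.119% fell, and 1 fell. In the Pitx3 sort, where 6.09% of all genes rose and 8.51% fell, 18 of the 79 rose and 12 fell. Of the 77 fallen genes 1 fell and none rose in the Nurr1 sort, and 8 fell and 2 rose in the Pitx3 sort. Ebf2 rose in all 3 sorts, by 2.04 with the Hes5 reporter, 1.76 with Nurr1 and 2.34 with Pitx3, as did St18, by 1.57, 1.4 and 0.94. Their differences between sorts did not pass (adjusted p = 0.735 for Ebf2 and 0.314 for St18, Hes5 against Pitx3).

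The difference between the Hes5 and Pitx3 sort effects was called for 414 genes (3.27%), 253 upward and 161 downward, and depends on single pairs. Of the 414, 308 were also called in the Pitx3 sort, 56 in the Hes5 sort and 64 in neither. Most of these genes thus passed in the Pitx3 sort and not in the Hes5 sort. When 1 pair was left out the count was 0 for Hes5 pair 3, for Nurr1 pair 2 and for pairs 2 and 3 of the Pitx3 line, 658 for Pitx3 pair 1, 655 for Hes5 pair 2 and 240 for Hes5 pair 1. Without the replicate block 7 genes passed. The difference to the Nurr1 sort was called by limma for 0 genes in the paired fit (smallest adjusted p = 0.0607, 1917 genes at an unadjusted p under 0.05), for 1 without the replicate block, and for up to 90 when 1 pair was left out (without Hes5 pair 2).

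Hes5 itself went opposite ways, with 2.04 in the Hes5 sort, -1.98 in the Nurr1 sort (adjusted p = 0.0771) and -2.42 in the Pitx3 sort (adjusted p = 0.0180), a Hes5 minus Pitx3 difference of 4.46 (SE 0.68, adjusted p = 0.0231). The difference was also called for Nrarp (3.80, adjusted p = 0.0222), Hey2 (2.98, adjusted p = 0.0311), Notch1 (2.65, adjusted p = 0.0323), Notch3 (2.48, adjusted p = 0.0425), Dll1 (2.24, adjusted p = 0.0349), Jag1 (1.75, adjusted p = 0.0389) and Hes6 (1.54, adjusted p = 0.0370). None of these genes passed in the Hes5 sort itself, where Notch3 stood at 0.28 (limma, adjusted p = 0.697). The Notch median was 0.75 in the Hes5 sort, -0.48 in the Nurr1 sort and -0.58 in the Pitx3 sort. The proneural median was 1.04, 0.91 and 1.17 in the same order. Wnt7a showed 1.90, -0.77 and -2.07 (difference to Pitx3 3.97, adjusted p = 0.0189), Irx3 1.51, -0.39 and -0.78 (2.29, adjusted p = 0.0177), Irx5 1.67, -0.07 and -1.07 (2.74, adjusted p = 0.0235), and Sox2ot 1.36, -1.13 and -1.52 (2.88, adjusted p = 0.0177). Hey2, Jag1, Wnt7a and Sox2ot were above background on no Pitx3 positive array, so their differences are fitted values and not sizes.

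RIKEN, predicted, LOC and clone names are left out of the rankings that follow. The largest upward differences to the Pitx3 sort were those of Serpina3n, a protease inhibitor made by reactive astrocytes (5.67, adjusted p = 0.0307), Dlx1 (4.82, adjusted p = 0.0222), Fgfbp3 (4.53, adjusted p = 0.0177), Hes5, Wnt7b (4.15, adjusted p = 0.0223) and Slc32a1 (4.10, adjusted p = 0.0285). Serpina3n read 10.30, 10.49 and 8.62 in Hes5 positive cells, against 5.70, 8.88 and 4.90 in negative cells, where 1 array was above background. The largest downward differences were the dopamine transporter gene Slc6a3 (-4.91, adjusted p = 0.0311), the growth factor receptor gene Ret (-4.86, adjusted p = 0.0222), the neuropeptide gene Cck (-4.83, adjusted p = 0.0177), Th (-4.48, adjusted p = 0.0231), the zinc transporter gene Slc39a4 (-4.14, adjusted p = 0.0308) and Necab1 (-4.07, adjusted p = 0.0223). Of these Slc39a4 alone was much lower in the Hes5 sort itself (-2.11, SE 0.51, adjusted p = 0.0753), and the other 5 lay between -0.85 and 0.32 there. Th was near background in both fractions of Hes5 pair 1, so that pair does not measure its difference. Of the 3 fallen epithelial genes the difference to the Pitx3 sort was called for Cldn6 (-3.48, adjusted p = 0.0231) and Krt8 (-1.64, adjusted p = 0.0346). It was not called for Krt18 (-1.65, adjusted p = 0.0889). The same Hes5 arrays gave their fall and enter this difference.

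**Figure D5:**
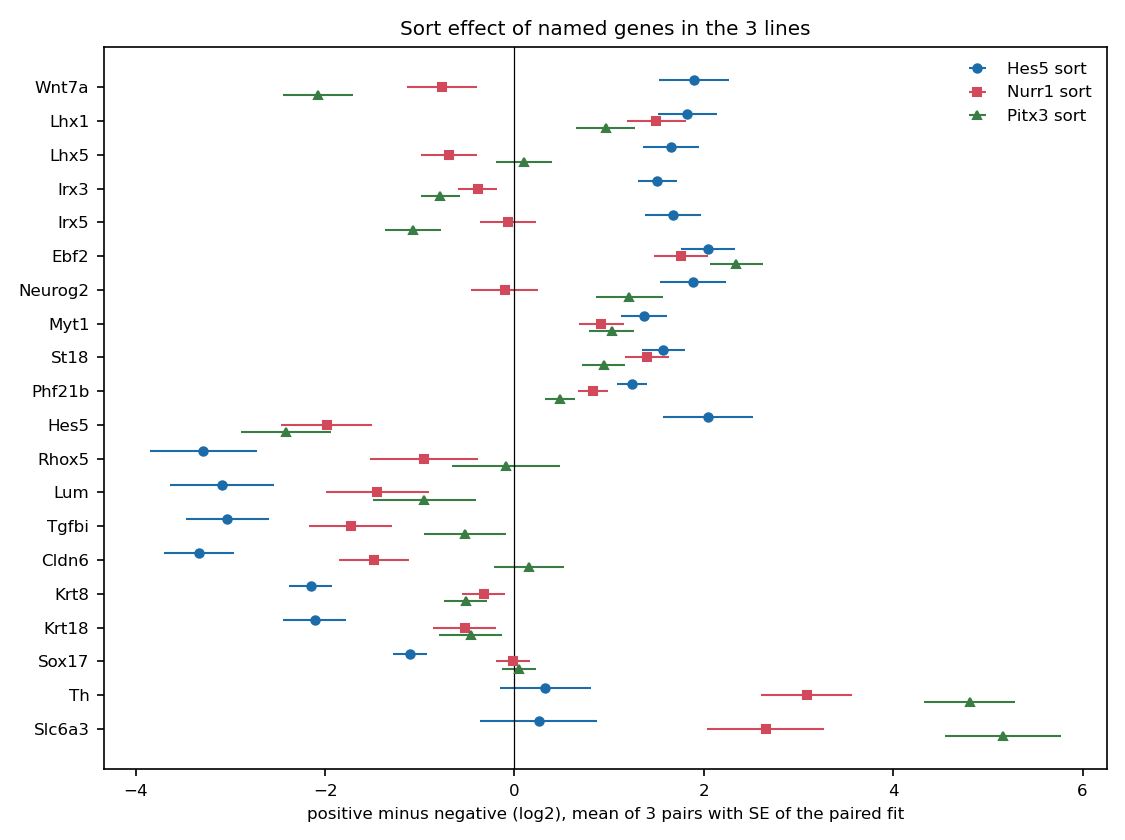
Difference between positive and negative cells (horizontal axis, log2; mean of 3 pairs with its SE from the paired fit) of 20 named genes in the Hes5, Nurr1 and Pitx3 sorts (symbols and colours). Ebf2 and St18 lie right of 0 in all 3 sorts, Hes5 and Wnt7a lie right of 0 in the Hes5 sort and left in the others, and Th and Slc6a3 lie near 0 in the Hes5 sort.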

How the data were processed

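Gene expression was read on 18 Illumina mouse bead arrays, 3 in each of 6 groups: positive and negative cells of 3 reporter lines. The authors deposited the scanner's intensity per probe before normalization, with a detection p-value and bead counts per probe, per the file headers, and a table of log2 values per gene. GenomeStudio and Partek are named, without versions, per the submitters' processing notes. Another 18 columns of bead standard errors were not used. A value rests on 11 or more beads, and the mean per array was 42.8 to 44.2 beads. Precision is limited by how many arrays there are.

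The 45281 probes carry no gene names here, so each was named by matching its intensities on 18 arrays with the deposited log2 table; 30328 of 31441 genes (96.5%) were tied to probes, and 0 of 300 shuffled genes were. The match used numbers, not sequence. Names were updated through RefSeq's table (13415 as symbols, 5594 as synonyms, 12432 kept as deposited). Background correction, quantile normalization and the log2 step were done with neqc (limma 3.58.1, R 4.3.3, offset 16). Probes with a detection p-value under 0.01 on at least 3 arrays were kept (18737, of which 2503 had no gene), and the brightest probe stood for each of 12650 genes. "At least N-fold" sets the brighter group's mean against the lowest signal well above background, where the dimmer group passed detection on no array.

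All 18 arrays entered 1 limma fit with the replicate number within each line as a block (9 blocks, 6 residual degrees of freedom), and p-values were Benjamini-Hochberg adjusted over all genes, with 0.05 as the threshold. The labels give the numbers and do not say what they share. Deviations from the group means correlated at 0.438 to 0.772 between arrays of the same number and line (9 of 9 pairs) and at -0.637 to 0.171 between different numbers, so the numbers were taken to pair the arrays. The array with contradictory labels was kept as its title says. The members, the gene lists and the tests were chosen with earlier results of these data known. Named were the reporter, Hes5, Ebf2 and Myt1, the 12 largest rises and falls past the threshold without overlap between groups, the largest members of each list, the measured Notch and proneural genes, and the 6 largest differences between sorts in each direction. RIKEN, predicted, LOC and clone names were left out of the largest rises, falls and differences between sorts. Some genes that this rule would name are not reported here, and they stay in the counts and medians. The fit was tested on simulated data. Alternatives changed the block, the arrays, the probe filter, the background correction, the offset, the centring, the probe rule and the estimate of spread.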

Additional observations from a re-analysis of the deposited data

Results flagged for a closer look

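Each of the following genes had a sort effect in the Hes5 line that differed from that in the Pitx3 line by the test of the difference itself (limma, paired fit, adjusted p under 0.05), one of 414 such genes. The values are Hes5 minus Pitx3 differences on the log2 scale, 6 arrays in each line, and no explanation was tested. Of the 414 genes, 308 were also called in the Pitx3 sort and 56 in the Hes5 sort, so a difference need not be a change in the Hes5 sort. Plac8, Myl3, Rec114, Taf7l, Sox17, Myl4, Jag1, Vax1, Fzd9, Wnt7a, Sox2ot, Pou6f1, Hey2 and Dlx2 were above background on no array of at least 1 of the groups compared, so their values come from the fit and do not measure a size.

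In the Notch pathway the difference was 4.46 for Hes5, 3.80 for Nrarp, 2.98 for Hey2, 2.65 for Notch1, 2.48 for Notch3, 2.24 for Dll1, 1.75 for Jag1 and 1.54 for Hes6. Progenitor and neural tube genes followed, with 3.54 for Sox9, 3.44 for Zic1, 3.97 for Olig1, 2.57 for Nkx6-2, 2.24 for Dbx1, 2.29 for Irx3, 2.74 for Irx5 and 2.88 for Sox2ot. Forebrain and GABA genes had 4.82 for Dlx1, 3.62 for Dlx2, 2.74 for Vax1 and 4.10 for Slc32a1. Signalling genes had 3.97 for Wnt7a, 4.15 for Wnt7b, 2.28 for Fzd9, 0.826 for Fzd3, 4.53 for Fgfbp3, 3.09 for Fgfr3 and 2.64 for the ephrin receptor gene Ephb1. Serpina3n had 5.67, Mki67 2.61, Cdkn2c 1.35 and Pou6f1 1.22.

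Among the genes lower in the Hes5 sort, the difference was -3.48 for Cldn6, -1.64 for Krt8, -1.68 for Spink1, -1.15 for Sox17, -2.43 for Taf7l, -3.13 for Rec114, -2.98 for Plac8, -2.61 for Fabp3, -2.29 for Myl3, -2.53 for Myl4, -2.58 for PRSS19, -2.26 for Slc7a3 and -1.84 for Trib3. Dopamine neuron genes, which the Pitx3 sort selects, had -4.91 for Slc6a3, -4.86 for Ret, -4.83 for Cck, -4.48 for Th and -2.22 for Ddc, while Slc39a4 had -4.14 and Necab1 -4.07.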

How the results depend on the processing

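Over 21 alternatives 24 of 36 gene lists kept the sign of their median, and of the 17 lists with a median over 0.5 in size 1 changed, the serotonin list. Calls were less stable. The count of 156 changed genes came to 2 without the replicate block, 0 from the 6 Hes5 arrays with a replicate block, 97 without the replicate block and the array with contradictory labels, 49 without the filter on dim probes, 100 with offset 50, 70 with median centring and 2 with array weights, whose estimation stopped before converging. Leaving out 1 pair of any line gave 3 to 1128. Fewer arrays leave fewer degrees of freedom, and the cause of these changes was not tested. EGFP kept 3.93 with adjusted p = 0.329 from the 6 Hes5 arrays in the limma fit, 3.93 with adjusted p = 0.0551 without the filter, and 3.39 with adjusted p = 0.498 with array weights, and ran from 3.32 to 4.69 when 1 pair was left out.

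The Hes5 minus Nurr1 difference was called for 1 gene without the replicate block, 2 without the filter, 4 with median centring, 2 from the authors' log2 table, 1 with a trended and robust spread, and 0 to 90 when 1 pair was left out. The Hes5 minus Pitx3 count of 414 came to 7 without the replicate block, 38 without the block and the array with contradictory labels, 67 without the filter, 78 with array weights, and 0 to 658 when 1 pair was left out.

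Genes whose differences changed sign were not called. With 1 pair left out Notch4 ran from -0.098 to 0.091, Jag2 from -0.0042 to 0.036, Ebf4 from -0.069 to 0.28, Aldoc from -0.11 to 0.99, B2m from -0.31 to 0.077, Slc6a3 from -0.21 to 0.60 and Necab1 from -0.38 to 0.042. Without the block and the array with contradictory labels Jag2 came to -0.082, Hes1 0.039, Lgals3 0.082, Cck 0.44, Ddc 0.074, Tph2 0.044, Kif11 -0.081, H19 0.20, Ret 0.29 and Necab1 0.68. From the authors' log2 table B2m came to 0.0090. Signal near background limits the fold changes given as bounds.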
